A study of Mus musculus with 6 samples.

Results

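Vomeronasal receptors are the pheromone receptors of the mouse vomeronasal organ, a chemosensory structure at the base of the nasal septum. The type 1 receptors, encoded by Vmn1r genes, are G protein-coupled receptors of apical sensory neurons that signal through Gnai2, and their coding sequence lies in a single exon. The type 2 receptors, encoded by Vmn2r genes, have a large extracellular ligand-binding domain, are made in basal neurons that signal through Gnao1, and are spread over several exons. Both families lie in tandem arrays of recently duplicated genes, and each neuron uses 1 or a few of them. The tissue examined here was the hippocampus, which is not where these receptors are known to act.

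The members were the peaks whose assigned gene symbol starts with Vmn1r or Vmn2r, whatever their class. They came to 1521 of 148832 distinct peaks (1.02%), and they named 200 gene symbols, 112 of Vmn1r and 88 of Vmn2r. Peaks of different libraries that shared at least 1 bp were merged, which gave 421 vomeronasal receptor regions of 48853 in all (0.862%), 207 of them Vmn1r and 214 Vmn2r. A region is therefore a stretch of genome in which at least 1 library had a peak.

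The measurements were MeDIP-seq peak lists, in which fragments carrying 5-methylcytosine are captured by an antibody and sequenced. Ethanol was given to 3 male C57BL/6 pups as 2.5 g/kg in 0.15 M NaCl. Saline at 0.15 M was given to 3 male littermate controls. Pups were injected under the skin 2 times on postnatal day 4 and 2 times on day 7, and hippocampal DNA was taken on day 21. The whole hippocampus was used, so cell types cannot be told apart. The lists held 23141, 34904 and 28386 peaks in ethanol mice 1, 2 and 3, against 18922, 22703 and 20776 in saline mice 1, 2 and 3. Read depth is unknown.

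Most regions lay outside genes, and 5 short sets of sequence show what was captured there. All were read from the RefSeq GRCm38 assembly (the mm10 build) from inside the regions, centred on the peak summit or, for further members of a set, aligned to the first member's window, with every CpG, the site of most methylation in mammals, in capitals. The first set holds the peak nearest to a receptor start in all 6 libraries, upstream of Vmn2r82 (chr10:79354720-79355019, plus strand, 12 CpG in 300 bases), and the Vmn2r region whose lowest rank by significance over the 6 lists was the highest, 41558 bp downstream of the Vmn2r44 start (chr7:8341568-8341767, plus strand, 15 CpG in 200 bases).
Vmn2r82: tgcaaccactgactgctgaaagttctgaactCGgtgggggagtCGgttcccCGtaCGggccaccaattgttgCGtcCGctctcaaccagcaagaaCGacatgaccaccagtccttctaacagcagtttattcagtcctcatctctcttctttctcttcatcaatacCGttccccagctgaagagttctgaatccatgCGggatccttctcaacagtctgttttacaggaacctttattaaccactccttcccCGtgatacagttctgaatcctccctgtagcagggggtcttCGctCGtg
Vmn2r44: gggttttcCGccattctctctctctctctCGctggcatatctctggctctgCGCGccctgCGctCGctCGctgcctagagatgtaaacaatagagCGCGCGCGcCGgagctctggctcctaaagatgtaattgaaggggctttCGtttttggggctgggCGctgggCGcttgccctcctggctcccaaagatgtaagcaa

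The second set shows 1 sequence that recurs beside receptors of different chromosomes. The windows lie 2425 bp upstream of Vmn1r45 (chr6:89942781-89942900, plus strand) and 35254 bp upstream of Vmn2r95 (chr17:18388524-18388643, minus strand). They are 93.3% identical, with 8 differences. The corresponding 120 bases of a region upstream of Vmn2r121 (chrX:124284312-124284431, minus strand) had no difference from the Vmn1r45 window.
Vmn1r45: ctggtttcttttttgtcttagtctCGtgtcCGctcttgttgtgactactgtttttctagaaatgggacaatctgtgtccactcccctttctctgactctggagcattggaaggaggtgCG
Vmn2r95: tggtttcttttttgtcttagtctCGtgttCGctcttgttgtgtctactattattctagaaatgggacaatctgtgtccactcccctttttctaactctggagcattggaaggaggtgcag

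The third set shows a sequence with almost no CpG that was captured beside copies of 1 receptor gene. The Vmn1r165 window (chr7:23196179-23196298, plus strand) holds 1 CpG in 120 bases and is identical, base for base, beside Vmn1r107, Vmn1r130, Vmn1r137 and Vmn1r155. The window beside Vmn1r127 (chr7:21329165-21329284, plus strand) has 1 difference and no CpG.
Vmn1r165: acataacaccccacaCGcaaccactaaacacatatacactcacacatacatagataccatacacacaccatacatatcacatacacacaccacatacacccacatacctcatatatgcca
Vmn1r127: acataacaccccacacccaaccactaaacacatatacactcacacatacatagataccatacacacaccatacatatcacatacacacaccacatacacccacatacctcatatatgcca

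The fourth set comes from inside receptor genes, from an intron shared by neighbouring Vmn2r copies. The Vmn2r21 window (chr6:123525748-123525867, plus strand) holds 6 CpG and has no difference from the Vmn2r20 copy. The Vmn2r22 window (chr6:123642901-123643020, plus strand) holds 4 CpG and is 95.8% identical.
Vmn2r21: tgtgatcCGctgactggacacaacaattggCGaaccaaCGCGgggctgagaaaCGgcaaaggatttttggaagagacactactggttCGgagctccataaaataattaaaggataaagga
Vmn2r22: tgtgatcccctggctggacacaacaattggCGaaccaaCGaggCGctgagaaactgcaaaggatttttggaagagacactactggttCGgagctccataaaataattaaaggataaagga

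The fifth set comes from regions with a peak in all 3 libraries of 1 group and in none of the other. Of the ethanol-specific regions, those beside Vmn1r115 (chr7:20854141-20854290, plus strand, no CpG) and Vmn2r75 (chr7:86098378-86098527, plus strand, 4 CpG) are shown, with the saline-specific region beside Vmn1r132 (chr7:21594922-21595071, plus strand, no CpG).
Vmn1r115: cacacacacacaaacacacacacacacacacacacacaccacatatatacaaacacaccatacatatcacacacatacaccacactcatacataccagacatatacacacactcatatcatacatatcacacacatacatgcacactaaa
Vmn2r75: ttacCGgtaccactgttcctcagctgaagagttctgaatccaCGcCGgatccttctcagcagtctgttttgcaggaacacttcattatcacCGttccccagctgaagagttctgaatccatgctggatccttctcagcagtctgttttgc
Vmn1r132: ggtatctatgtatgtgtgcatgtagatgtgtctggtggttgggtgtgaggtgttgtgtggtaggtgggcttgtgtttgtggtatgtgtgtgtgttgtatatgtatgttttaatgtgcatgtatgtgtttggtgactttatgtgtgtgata

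Each ethanol library held more vomeronasal receptor peaks than each saline library. There were 238, 302 and 316 peaks in ethanol mice 1, 2 and 3, against 227, 222 and 216 in saline mice 1, 2 and 3. The groups did not overlap, and ethanol mouse 1 lay close to the saline mice. The means were 285 ± 41.6 peaks in ethanol mice and 222 ± 5.51 in saline mice (SD, n = 3 each), a ratio of 1.29 (two-sided exact permutation test, p = 0.1, adjusted p = 0.167 over 10 comparisons). With 3 mice a group, 0.1 is the smallest p this test can give. Both families showed the same order. Vmn1r peaks numbered 113, 144 and 160 in ethanol mice, against 110, 112 and 105 in saline mice (ratio 1.28, exact p = 0.1). Vmn2r peaks numbered 125, 158 and 156 in ethanol mice, against 117, 110 and 111 in saline mice (ratio 1.30, exact p = 0.1).

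The lists of ethanol mice were longer as a whole too, so the counts were set against list length. Vomeronasal receptor peaks made up 1.03%, 0.865% and 1.11% of the peaks of ethanol mice 1, 2 and 3, against 1.20%, 0.978% and 1.04% in saline mice. The groups overlapped, at 1.00 ± 0.126% in ethanol mice and 1.07 ± 0.114% in saline mice (SD, n = 3 each; exact permutation p = 0.5). The 95% Wilson interval of the lowest share, in ethanol mouse 2, was 0.773% to 0.968%, and that of the highest, in saline mouse 1, was 1.05% to 1.37%; both cover counting error only. All peaks together were 1.39 times as many in ethanol mice (exact p = 0.1). When each list was limited to its 18922 most significant peaks, the mean was 214 vomeronasal receptor peaks in ethanol mice and 206 in saline mice, a difference of 8.33 in place of 63.7 peaks (exact p = 0.5).

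**Figure D1:**
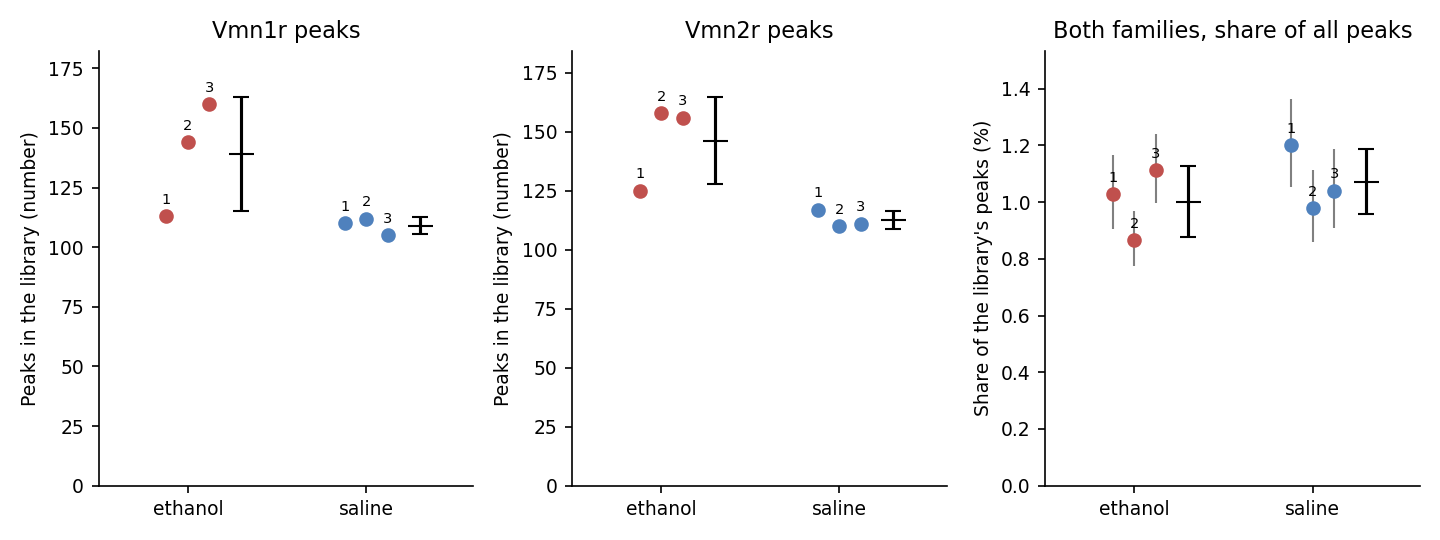
Vomeronasal receptor peaks by library. The y axes give the number of Vmn1r peaks, the number of Vmn2r peaks and the share of the library's peaks (%); points are libraries with their replicate number, black bars are means ± SD (n = 3 each), and grey lines are 95% Wilson intervals. Counts of all 3 ethanol mice lie above all 3 saline mice in the first and second panels, and the groups overlap in the third.

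Counted by symbol, receptor genes with a peak numbered 135, 162 and 172 in ethanol mice, against 136, 123 and 127 in saline mice, so that ethanol mouse 1 lay below saline mouse 1 (exact permutation p = 0.2, adjusted p = 0.25). Of the 200 symbols, 104 (52.0%) had a peak in every library, beside 50.2% of the 13142 genes with a peak anywhere in the lists. Because receptor copies can be alike enough to exchange names, genes were also counted by position in RefSeq. By position, 139, 165 and 174 genes or pseudogenes had a peak in ethanol mice, against 138, 126 and 126 in saline mice, and the groups did not overlap (exact permutation p = 0.1, adjusted p = 0.167). This count was not adjusted for list length, and all peaks together were 1.39 times as many in ethanol mice. With lists of equal length, the count by symbol had a mean of 125 in ethanol and 119 in saline mice (exact permutation p = 0.6). Over all libraries, a peak was assigned to 115 of 229 coding Vmn1r genes (50.2%) and to 88 of 123 coding Vmn2r genes (71.5%).

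A peak in all 3 ethanol mice and in no saline mouse marked 6 regions, which is 1.43% of the 421 regions, beside 1.49% of all regions in the lists. All 6 lay on chromosome 7 and outside any annotated gene. Vmn1r57 (chr7:5275110-5276286), 55040 bp downstream of its start, had summit tag counts of 21, 26 and 32 in ethanol mice 1, 2 and 3. Vmn1r115 (chr7:20853982-20854668), 9330 bp upstream, had 25, 28 and 38. Vmn1r100 (chr7:22424775-22426534), a symbol listed here at the position of Vmn1r148, had 70, 69 and 61. These were tag counts at the peak summit as deposited, which are not scaled for depth, and the saline mice had no peak to read. Among Vmn2r genes, the Vmn2r66 region (chr7:85076454-85077085), 64786 bp upstream, had 24, 27 and 35 tags. The Vmn2r74 region (chr7:86008518-86009151), 47241 bp upstream, had 31, 32 and 34. The Vmn2r75 region (chr7:86098190-86098828), 73300 bp downstream, had 38, 51 and 38. The values lay between 21 and 70 tags, and vomeronasal receptor peaks as a whole ran from 17 to 449.

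The reverse pattern was held by 1 region, 0.238% of the 421 beside 0.108% of all regions. It lay 17715 bp upstream of Vmn1r132 (chr7:21594777-21595338), with 45, 63 and 83 tags in saline mice 1, 2 and 3 and no peak in any ethanol mouse. Counted by gene, Vmn1r57, Vmn1r115, Vmn2r66 and Vmn2r75 had a peak of any class in every ethanol mouse and in no saline mouse, which is 2.00% of 200 genes beside 1.32% of all genes. No receptor gene showed the reverse, where 0.0685% of all genes did. The ethanol-specific share of regions was near that of the whole lists, and 1 saline-specific region is too few to read against its share. Leaving out a library relaxes the rule for all regions alike. The ethanol-specific count was 25 without ethanol mouse 1 (6.08% of receptor regions, beside 6.20% of all regions), 12 without ethanol mouse 2 (3.11%, beside 2.90%) and 10 without ethanol mouse 3 (2.59%, beside 3.65%). It was 10 without saline mouse 1 (2.45%, beside 2.402%) and 13 without saline mouse 3 (3.14%, beside 2.60%). The saline-specific count was 4 without saline mouse 2 (0.964%, beside 0.341%) and 2 without saline mouse 3 (0.483%, beside 0.373%).

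Most receptor regions were either in every library or in few. Of the 421, 136 (32.3%) had a peak in all 6 libraries and 106 (25.2%) in 1 library only, beside 21.0% and 34.7% of all regions. The 450 olfactory receptor regions, from the larger receptor family of the main olfactory epithelium, stood at 32.9% and 25.6%. Regions of all 6 libraries had a median of 4.13 CpG per 100 bp, against 2.93 in regions of 1 library. The 106 regions of 1 library fell to ethanol mice 1, 2 and 3 as 10, 35 and 35 regions, against 13, 6 and 7 for saline mice 1, 2 and 3. Ethanol mice 2 and 3, which have the longest lists, thus held most of them. More ethanol than saline libraries had a peak in 194 regions (46.1%), and more saline than ethanol libraries in 50 (11.9%), beside 51.8% and 14.7% of all regions.

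**Figure D2:**
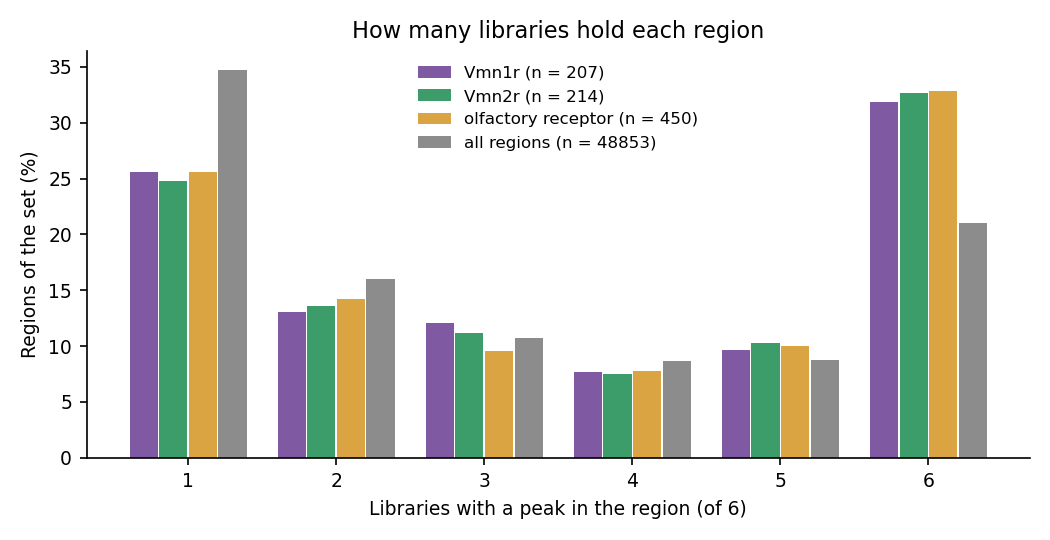
Number of libraries with a peak in each region. The x axis gives the number of libraries (of 6) and the y axis the share of regions of each set (%). Vmn1r (31.9% in all 6), Vmn2r (32.7%) and olfactory receptor regions (32.9%) are held by all libraries more often than all regions (21.0%).

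Few regions lay near receptor starts. Peaks classed as promoter lie within 2 kb of a start, and 3 of the 421 regions did. All 3 lay upstream of the listed start of a Vmn2r gene, and none at a Vmn1r gene. Vmn2r82 (chr10:79354488-79355300), 1653 bp upstream of its start, had 135, 128 and 122 tags in ethanol mice, against 114, 136 and 121 in saline mice. All 6 values lay close together and the groups overlapped. Vmn2r44 (chr7:8384783-8385523), 1992 bp upstream, had 25 and 28 tags in ethanol mice 1 and 3 and 24 tags in saline mouse 2, with no peak elsewhere. Vmn2r5 (chr3:64509354-64509857), 1919 bp upstream of its listed start, had a peak in ethanol mouse 2 alone, with 30 tags. GENCODE models put that summit in a coding exon of Vmn2r5 itself.

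The median distance from summit to start was 17618 bp for Vmn1r regions and 38490.5 bp for Vmn2r regions. In the band 2 to 20 kb upstream lay 69 Vmn1r and 28 Vmn2r regions, and 2 to 20 kb downstream lay 51 and 19. From 20 to 100 kb the order turned round downstream, with 34 Vmn1r and 69 Vmn2r regions. RefSeq coding genes have a median length of 924 bp in Vmn1r and 24544 bp in Vmn2r, so by these lengths the downstream bands hold the body of many Vmn2r genes but not of Vmn1r genes. The windows of 4 kb centred on receptor starts hold a median of 0.425 CpG per 100 bp in Vmn1r and 0.350 in Vmn2r, and 0.425 in olfactory receptor genes. In the RefSeq promoter table (250 bases before to 50 after a start), the median was 1 CpG at 206 Vmn1r and 118 Vmn2r promoters, beside 7 over 32851 promoters of all genes.

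**Figure D3:**
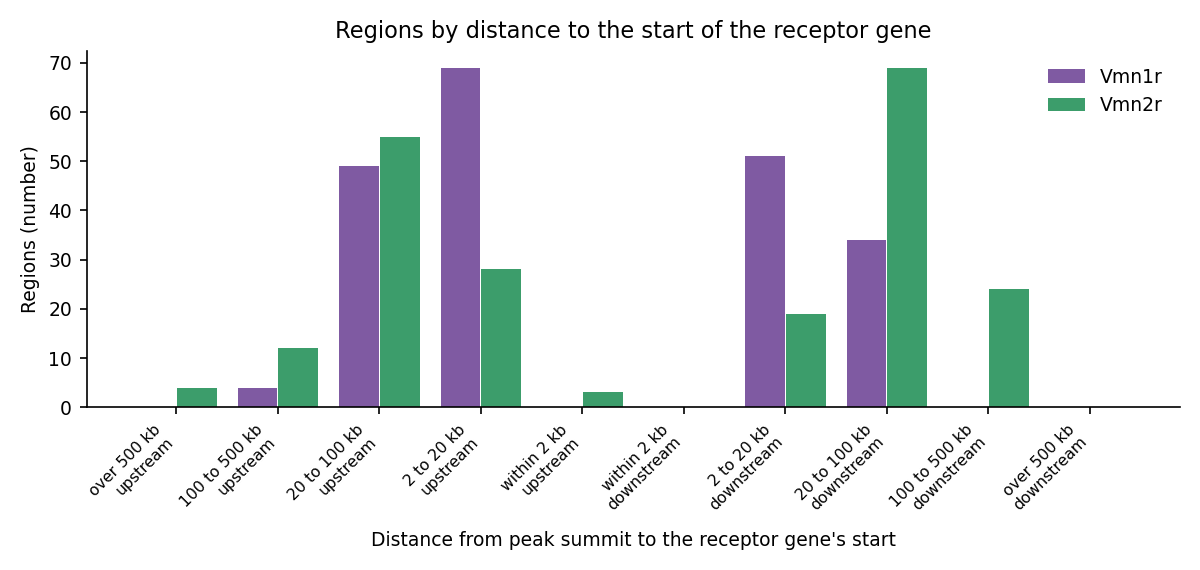
Vomeronasal receptor regions by distance to the start of their gene. The x axis gives the distance band, upstream to downstream, and the y axis the number of regions of each family. No Vmn1r region and 3 Vmn2r regions lie within 2 kb upstream, and none of either family within 2 kb downstream.

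Peaks inside receptor genes were mostly at Vmn2r. The lists classed 26 regions as gene body, at 16 Vmn2r genes and no Vmn1r gene, and 12 of the 26 had a peak in all 6 libraries. Vmn2r35 (chr7:7801232-7801928), 18376 bp downstream of its start in an intron, had 220, 269 and 266 tags in ethanol mice, against 190, 209 and 192 in saline mice. The authors' fold enrichment there was 6.07, 6.20 and 5.64 in ethanol mice, against 6.22, 6.43 and 5.96 in saline mice. The groups lay apart in unscaled tags and overlapped in fold. By annotation, 328 of the 421 regions (77.9%) had their summit in no gene, 47 in an intron and 1 in a coding exon of a vomeronasal receptor gene, and 37 in another gene only. GENCODE models also put the summits of 7 Vmn1r regions inside a receptor gene, 4 in introns and 3 in untranslated exon sequence, against 49 Vmn2r regions inside a receptor gene or pseudogene; the lists class those 7 as intergenic.

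Set against all other peaks of the same library, vomeronasal receptor peaks were richer in CpG and in repeats and poorer in genes. The median CpG density was 3.70 ± 0.134 per 100 bp in receptor peaks and 2.86 ± 0.234 in other peaks (SD over 6 libraries; higher in 6 of 6 libraries). Soft-masked bases, which the assembly marks as repeats, made up a median of 93.8 ± 0.468% of receptor peaks and 55.5 ± 4.77% of other peaks. Gene body peaks were 7.13 ± 0.611% of receptor peaks and 24.4 ± 0.313% of other peaks. Promoter peaks were 0.657 ± 0.189% of receptor peaks and 3.10 ± 0.123% of other peaks. The median length was 601 ± 22.9 bp in receptor peaks and 564 ± 5.82 bp in other peaks. Receptor peaks lay in regions of all 6 libraries in 55.0 ± 8.80% of cases, against 43.3 ± 9.11% of other peaks. Each of these 6 differences had the same sign in all 6 libraries (exact sign-flip permutation test, p = 0.031, the smallest it can give, adjusted p = 0.0469 over 12 comparisons). The 136 receptor regions of all 6 libraries are by definition the same in each library. For that share the libraries are therefore not separate measurements, and its p is not read. For the other measures too, the libraries share many of their regions.

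Olfactory receptor peaks, from a family with the same tandem layout, were much nearer to them. CpG density (3.70 in vomeronasal and 3.77 per 100 bp in olfactory receptor peaks, exact permutation p = 0.0625) and soft-masked share (93.8% and 94.4%, exact permutation p = 0.3125) did not pass the test. The families parted in where peaks lay. Promoter peaks were 0.657% of vomeronasal and 12.2 ± 1.13% of olfactory receptor peaks, and gene body peaks were 7.13% of vomeronasal and 0.364 ± 0.205% of olfactory receptor peaks (each exact permutation p = 0.031, adjusted p = 0.0469). The vomeronasal gene body peaks were all at Vmn2r genes, and 0 Vmn1r genes had one. RefSeq coding genes have a median length of 24544 bp in Vmn2r, 924 bp in Vmn1r and 951 bp in olfactory receptors. Genes with a promoter peak numbered 3 of the 200 vomeronasal symbols and 60 of the 321 olfactory receptor symbols with any peak.

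**Figure D4:**
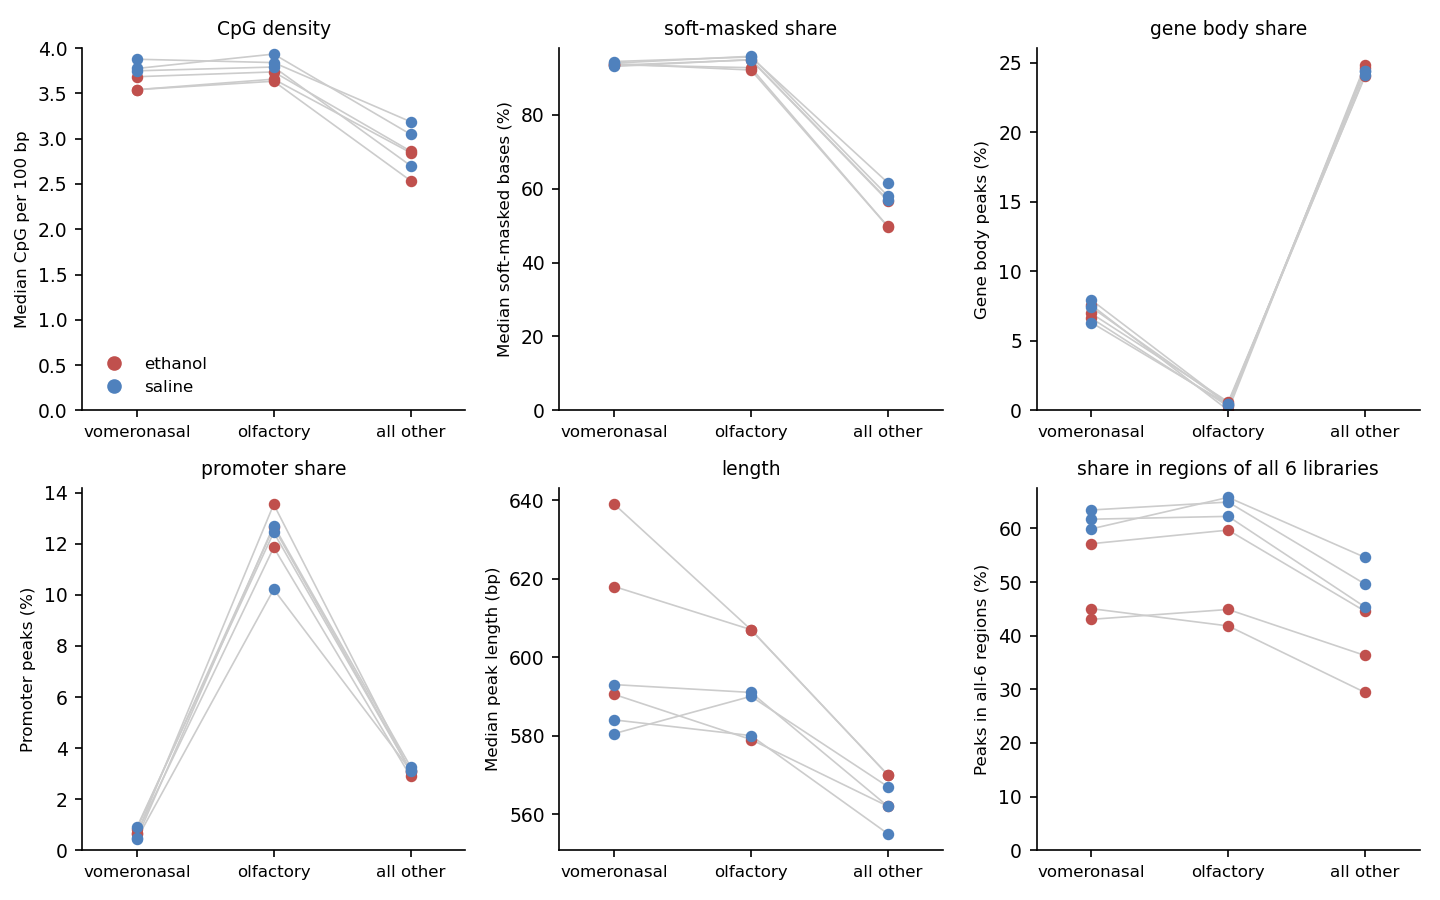
Vomeronasal receptor peaks beside olfactory receptor peaks and all other peaks. Each panel names its measure on the y axis, points are libraries (ethanol and saline in 2 colours) and grey lines join a library; the length axis does not start at 0. Vomeronasal and olfactory receptor peaks lie together in CpG density and soft-masked share and apart in promoter and gene body share.

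In 100% of the receptor annotation rows, the assigned start was the nearest start listed on the chromosome. A peak is thus a member because it lies near a receptor gene. The place of the regions in receptor clusters follows from that rule and is given as a description. Clusters were taken as genes of RefSeq with starts less than 1 Mb apart, and 371 of the 421 regions (88.1%) fell inside a cluster. Chromosome 7 held 213 regions (50.6%), chromosome 17 held 61, chromosome 6 held 49 and chromosome 13 held 30. The most heavily covered cluster was the Vmn1r array from Vmn1r91 to Vmn1r183 (chr7:20101158-24055691), with 96 receptor regions. All regions inside it, receptor or not, came to 39.5 per Mb, beside 17.9 per Mb over all chromosomes. It had 54, 65 and 76 receptor peaks in ethanol mice, against 52, 57 and 50 in saline mice, so the groups overlapped. The mixed array from Vmn2r-ps35 to Vmn1r-ps69 (chr7:7153726-13244458) had 17.4 regions per Mb, and 43, 56 and 55 receptor peaks in ethanol mice, against 39, 35 and 37 in saline mice. The Vmn1r array on chromosome 13 (chr13:22057168-23269501) had 12, 21 and 16 receptor peaks in ethanol mice, against 10, 13 and 11 in saline mice. The Vmn2r array from Vmn2r-ps62 to Vmn2r79 (chr7:84810427-87037968) had 10.33 regions per Mb. Of its 20 receptor regions 3 were ethanol-specific, beside 1.49% of all regions, and 3 regions are too few to read against that share. The peak counts of the clusters were not adjusted for list length, and all peaks together were 1.39 times as many in ethanol mice.

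A single gene could hold many regions where it stands alone. Vmn2r121 on chromosome X, chosen here after its values were seen, was the assigned gene of 17 regions from 1179322 bp upstream to 430662 bp downstream of its start, and no region lay inside it. They gave 11, 13 and 9 peaks in ethanol mice, against 13, 10 and 12 in saline mice, and 7 of the 17 had a peak in all 6 libraries.

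The 10 receptor genes whose regions ranked highest in every list were led by Vmn1r139. Its region (chr7:21670967-21671822), which stands 57279 bp downstream of the gene RefSeq calls Vmn1r132, had 397, 443 and 449 tags in ethanol mice, against 313, 432 and 314 in saline mice. The region of Vmn1r101 and Vmn1r149 (chr7:22441138-22442954), 4209 bp upstream, had 366, 431 and 330 tags in ethanol mice, against 279, 340 and 298 in saline mice. The groups overlapped in both regions. The Vmn1r139 region, whose summit lies in the GENCODE pseudogene Gm8600, stood in each list at percentile 99.6 or higher by significance.

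Vmn2r44 (chr7:8341313-8342021) had the highest lowest-library fold enrichment of these 10, an authors' ratio of 14.2 to 16.2 over background. Its tags were 231, 238 and 212 in ethanol mice, against 200, 177 and 177 in saline mice. Its fold enrichment was 15.8, 16.2 and 15.5 in ethanol mice, against 15.9, 14.8 and 14.2 in saline mice, so the groups lay apart in unscaled tags and overlapped in fold. Vmn2r89 (chr14:51434768-51435686), whose region lies in an intron of Gm7247, was the only one of the 10 mostly outside soft-masked sequence, at 11.2%, with 6.11 CpG per 100 bp. Its tags were 258, 205 and 196 in ethanol mice, against 157, 249 and 217 in saline mice, which overlapped. The others were Vmn2r77, Vmn2r82, Vmn2r69, Vmn1r72, Vmn2r18 and Vmn2r35, each in the top 5% of every list. The widest Vmn1r regions, both 2053 bp, lay beside Vmn1r130 and Vmn1r137, and the widest Vmn2r region was 1784 bp, in an intron 93359 bp upstream of the assigned Vmn2r7 start (chr3:64812686-64814469), with 19 and 30 tags in ethanol mice 1 and 3 and no peak elsewhere.

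Receptor regions were often copies of one another. Regions were joined where blastn found at least 95% identity over 80% of the shorter one, limits set after the sequences were seen. By this measure 205 of the 421 regions (48.7%) had a copy among the others, and at 90% and 98% identity 255 and 151 did. The same share was not computed for olfactory receptor regions or for all regions, so it is not a trait particular to receptors. They formed 48 families. Families that spread over 2 or more chromosomes numbered 14, with 95 regions and a median of 4.62 CpG per 100 bp; families within 1 chromosome numbered 34, with 110 regions and a median of 2.90. The 216 regions with no copy among the other receptor regions stood at 3.22. Copies elsewhere in the genome were not searched for.

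The family printed above beside Vmn1r45 and Vmn2r95 had 11 regions on chromosomes 4, 6, 7, 17 and X, and 10 of them had a peak in all 6 libraries. It was picked after its values were seen. Its CpG density ran from 4.86 to 6.44 per 100 bp. At Vmn1r45 the tags were 81, 75 and 59 in ethanol mice, against 40, 54 and 70 in saline mice, and at Vmn2r95 they were 82, 93 and 71 in ethanol mice, against 79, 74 and 84 in saline mice. The groups overlapped at both. The remaining region, 967580 bp upstream of Vmn2r121, lacked a peak in saline mouse 2 only.

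The 5 genes with the most regions were themselves copies. Vmn1r107, Vmn1r130, Vmn1r137, Vmn1r155 and Vmn1r165 are each 924 bp, and any pair differed by at most 1 base. The lists give all 5 symbols to each peak beside any of them, so they shared 21 regions, and the position of the peak names the copy. These held 13, 18 and 21 peaks in ethanol mice, against 12, 17 and 15 in saline mice. Several peaks recurred at like distances from some of the copies. A region about 21 kb upstream was present at Vmn1r107, Vmn1r155 and Vmn1r165, in 5, 5 and 6 libraries, and its sequence lay about 28 kb upstream of Vmn1r130 and Vmn1r137, in 6 and 2 libraries. A region about 15.8 kb upstream was found at Vmn1r130 and Vmn1r137, in all 6 libraries at each. Both copies were 2053 bp, the widest of the Vmn1r regions, and the one at Vmn1r130 (chr7:21495466-21497518) had 303, 362 and 347 tags in ethanol mice, against 250, 239 and 131 in saline mice. Its fold enrichment was 10.09, 9.70 and 9.84 in ethanol mice, against 10.32, 8.70 and 8.68 in saline mice. The groups lay apart in unscaled tags, where saline mouse 3 was the lowest, and overlapped in fold.

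At some copies the values were nearly equal. The region 4961 bp downstream of Vmn1r107 had peaks in ethanol mice 2 and 3, with 31 and 25 tags, and in saline mice 2 and 3, with 35 and 32. The region 4961 bp downstream of Vmn1r155 had 31 and 24 tags in the same ethanol mice, against 34 and 32 in the same saline mice. At Vmn1r165 the values were 31 and 24 tags in ethanol mice, against 35 and 32 in saline mice. These 3 loci gave nearly the same number in each library, so they may not be 3 separate measurements. The fourth copy, 4966 bp downstream of Vmn1r130, had peaks in the same libraries at higher values, 54 and 42 tags in ethanol mice, against 66 and 59 in saline mice. Over all pairs of regions at 99% identity and 95% cover, tags differed by at most 1 in 16.7% of 299 library values, beside 3.59% of 195295 values from pairs that were not copies. The sources used here do not give how reads matching several places were placed, and its part in these values was not tested.

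**Figure D5:**
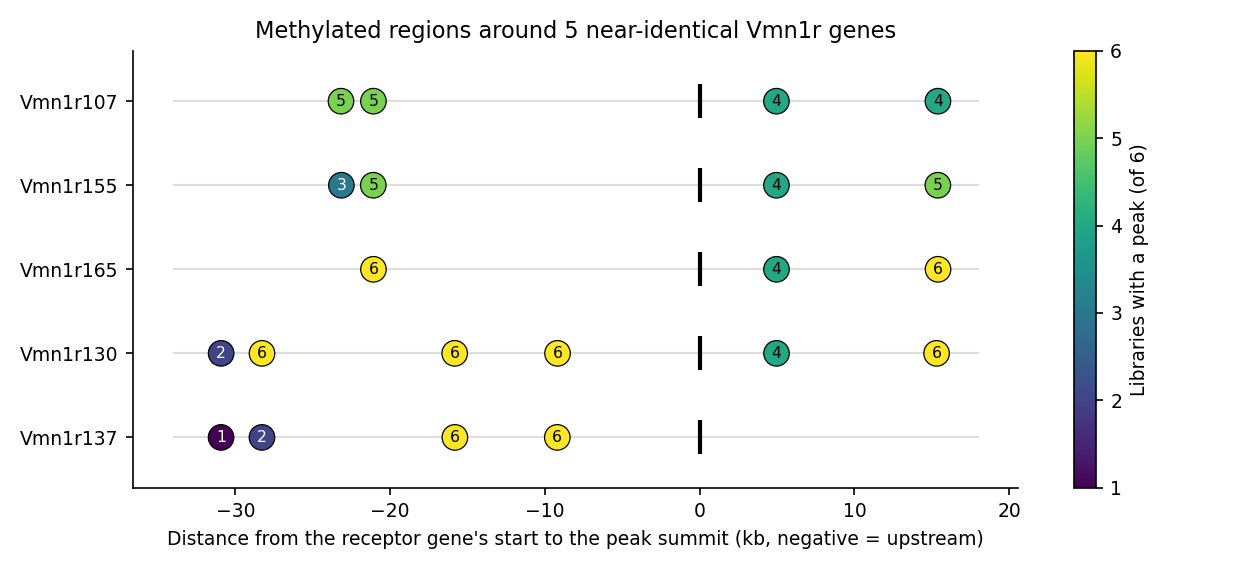
Regions with a MeDIP-seq peak around 5 near-identical Vmn1r genes. A peak shows capture by the antibody, and some of these regions hold almost no CpG. The x axis gives the distance from the gene's start (black tick) to the peak summit in kb, rows are the gene copies by position, and the number and colour of a circle give the libraries with a peak (of 6). Peaks recur at about 21 kb upstream and 5 kb and 15 kb downstream of Vmn1r107, Vmn1r155 and Vmn1r165.

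Some of these copies hold almost no CpG. Of the 421 regions, 49 (11.6%) had under 1 CpG per 100 bp, beside 21.4% of all regions, and 30 of the 49 belonged to a sequence family. The family printed above beside Vmn1r165 ran from 0.386 to 0.584 CpG per 100 bp in its 6 regions, and 5 of them were called in 5 or 6 libraries. At Vmn1r165 the tags were 91, 92 and 82 in ethanol mice, against 62, 88 and 69 in saline mice, and the groups overlapped. Of the group-specific regions, Vmn1r115 (0.208 CpG per 100 bp) and Vmn1r132 (0.189) were of this low-CpG kind. Of the 6 ethanol-specific regions, 3 belonged to a sequence family (Vmn1r57, Vmn1r115 and Vmn1r100). Those of Vmn2r66, Vmn2r74 and Vmn2r75 had no copy at 95% identity among the other receptor regions, which does not make their sequence unique. The saline-specific region of Vmn1r132 belonged to a family of 4. With copies counted once, 3 ethanol-specific and 0 saline-specific sequences remained. The families of Vmn1r57, Vmn1r115, Vmn1r100 and Vmn1r132 thus had a peak in the other group at another copy.

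Receptor introns carried copies too. Vmn2r20, Vmn2r21 and Vmn2r22, named after their values were seen, have a region about 7.6 kb into the gene, whose aligned windows are printed above. At Vmn2r20 the tags were 103, 61 and 184 in ethanol mice, against 84, 71 and 128 in saline mice. At Vmn2r21 they were 53, 78 and 99 in ethanol mice, against 48, 71 and 69 in saline mice. Vmn2r22 had peaks in ethanol mouse 3, with 31 tags, and saline mouse 1, with 28 tags. The groups overlapped at Vmn2r20 and Vmn2r21, and Vmn2r22 had 1 value in each group.

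Genes that work with these receptors were examined as lists. Of 23 genes of vomeronasal signalling, axon sorting and neuron identity, 18 had a peak of any class, at 17, 17 and 18 genes in ethanol mice, against 15, 16 and 16 in saline mice (exact permutation p = 0.1, adjusted p = 0.45 over 9 lists). All peaks together were 1.39 times as many in ethanol mice, and these counts were not adjusted for list length. Promoter peaks were found at 3 of them, Omp, the olfactory marker protein, Gng8, a G protein gamma subunit, and Ano2, a calcium-activated chloride channel. Trpc2, the transduction channel of vomeronasal neurons, and Gnai2 had no peak assigned, and Gnao1 had peaks in all 6 libraries. Of 9 nonclassical MHC class I genes that accompany type 2 receptors, 3 had a peak. Among ligands, 18 of 22 major urinary protein genes and 0 of 15 exocrine gland peptide genes had a peak, and neither list was group-specific at any gene. Genes were counted by symbol, and 1 peak can carry several symbols, so these counts need not be separate peaks. The lists were not set against the share of all genes with a peak.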

How the data were processed

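Hippocampal DNA of 6 mice (3 ethanol, 3 saline) was measured by MeDIP-seq over 150 sequencing cycles. Per the labels' design text, reads were aligned to mm10 with Bowtie and peaks were called with version 2 of MACS at a q-value threshold of 0.0001; the submitters' processing notes name Bowtie2 2.1.0. Peaks were called per library and not pooled, since each library has its own deposited list. The deposited lists give, for each peak, the authors' summit tag count (a pileup signal), the authors' fold enrichment (a ratio) and the authors' −log10 q-value. No read counts were used, so the tests between mice used the presence of peaks only. The authors' tags and folds are given per mouse as a description, with no test, and tags are not scaled for depth.

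Members, gene lists and named genes were chosen with earlier results of these data known. A peak with several symbols was counted once. Peaks sharing at least 1 bp were merged into regions, a region being group-specific with a peak in 3 of 3 libraries of a group and 0 of 3 of the other. Groups were compared by exact permutation over mice, and receptor peaks with other peaks of a library by exact sign flips over 6 libraries, with Benjamini-Hochberg adjustment. The functions were tested on simulated data. CpG and soft-masked bases came from RefSeq GRCm38.p6, positions from RefSeq and GENCODE M21. Genes named were the 10 with the highest lowest-library rank by significance among regions of all 6 libraries, those with promoter peaks, those with group-specific regions, the 5 with the most regions and the widest region of each family. Copies were found with blastn 2.17.0; other tools were python 3.11.15, pandas 2.3.3 and pysam 0.24.0. The labels call the mice matched littermates, and the sources used here do not give which of them shared a litter, so p-values measure the spread between these 6 animals.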

Additional observations from a re-analysis of the deposited data

How the results depend on the processing

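Alternatives were lists of equal length (18922 peaks), −log10 q of at least 10, membership by overlap with a receptor gene, 50% of a region covered, olfactory receptor peaks as the comparison, each mouse left out, and a replicate block; counting sequence copies once was added after seeing the data. Of 128 recomputed values, 73 were called the same, a tally that does not measure robustness. Comparisons between ethanol and saline mice cannot give an exact permutation p below 0.1, so only their direction could change. Group-specific counts were called by size alone, with no direction or threshold. With 1 mouse left out, receptor peaks against other peaks could not keep their side, since 0.0625 is then the smallest exact permutation p. With lists of equal length the difference in share turned to 0.0440 percentage points and that in Vmn1r peaks to -2.67 (exact permutation p = 0.5 and 0.6). Membership by overlap with a receptor gene is narrower than the count by position above. It left a mean of 48.3 peaks in ethanol and 38.3 in saline mice (exact permutation p = 0.1). Their share of all peaks was 0.171% and 0.185% (exact permutation p = 0.6). Vmn1r peaks by overlap differed by 0 between groups (mean 1 peak in each). The group-specific regions were then 1 for ethanol (1.43%, beside 1.49% of all regions) and 0 for saline (beside 0.1085%). With copies counted once, a sequence family counted as present in a library where any of its regions had a peak. The group-specific counts were then 3 (1.14% of 264 distinct receptor sequences) and 0. The share over all regions was not computed for that setting. Against olfactory receptor peaks, the differences were -0.0713 CpG per 100 bp, -0.649 points of soft-masked bases, 6.77 points of gene body peaks, -1.51 points of peaks in regions of all 6 libraries and 8.5 bp of length. Leaving out 1 mouse at a time gave 9 to 25 ethanol-specific regions (2.17% to 6.08% of receptor regions, beside 2.402% to 6.20% of all regions) and 1 to 4 saline-specific regions (0.243% to 0.964%, beside 0.247% to 0.561%). Receptor peaks minus other peaks then ranged from 0.788 to 0.860 for CpG density, 37.1 to 39.3 for soft-masked share, -17.5 to -17.1 for gene body share, -2.49 to -2.37 for promoter share, 30.0 to 41.1 bp for length and 11.0 to 12.2 for the share in regions of all libraries, at an exact permutation p of 0.0625, the smallest that 5 libraries allow. For the share in regions of all libraries this p is not read, since those regions are the same in each library. With a replicate block over same-numbered mice, the peak difference was 63.7 (exact permutation p = 0.25, the smallest 3 pairs allow). Same-numbered mice did not deviate together (correlations of -0.0496, -0.0117 and 0.0025), but 3 pairs cannot decide whether any of them shared a litter. The replicate block changed no call. It could not have done so, since the smallest exact permutation p is 0.1 without the block and 0.25 with it. Depth is unknown, so a missing peak does not show that a region lacks methylation.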
